A study of Mus musculus with 6 samples.

Results

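The 775 windows described here are the stretches of 100 kb that held the most listed 5-hydroxymethylcytosine (5hmC) in E14 cells, an established mouse embryonic stem cell line. They were chosen by counting listed 5hmC cytosines per window along autosomes 1 to 19 without chromosomes 8 and 11, and keeping every window with 2000 or more. On these 17 autosomes 21454 windows held at least 1 listed 5hmC cytosine, so the dense windows were 3.61% of them, and 25520 windows did so on all nuclear chromosomes. The study labelled DNA of E14 cells grown on gelatin with LIF by Pvu-Seal-seq, which cuts near modified cytosines with PvuRts1I and captures the tagged fragments. Its labels name 6 libraries: 2 technical replicates of 5-formylcytosine (5fC) and 2 of 5hmC from cells at passage 14, and 2 of 5hmC from cells at passage 12. No genotype or treatment is labelled beyond the line itself, and no marker of the cell type can be read from DNA modification data. For each mark the files give a single pooled read count at every listed cytosine, so no value below has a replicate error and no test could be run. The 5hmC site number chose the windows, and everything drawn from the 5hmC list of these windows is therefore a description.

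TET enzymes oxidise 5-methylcytosine to 5hmC and then to 5fC, which the glycosylase TDG can remove so that repair restores an unmodified cytosine. In embryonic stem cells 5hmC is abundant and is found along gene bodies and at distal regulatory elements. Most of it lies at CG dinucleotides, where each strand carries a cytosine and the pair is called a dyad. Mouse autosomes have their centromere near the end at which coordinates start.

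The dense windows carried 1754216 listed 5hmC cytosines with 24085874 reads and 691866 listed 5fC cytosines with 10904899 reads. A dense window held a median of 2197 5hmC sites, with 2000 the lowest and 3486 the highest, against a median of 642 in the 20679 other windows of the same chromosomes. The 5fC list did not enter the choice, but it is not independent of it. In dense windows 76.6% of 5fC sites were also listed 5hmC sites, which the rule counted. The dense windows held a median of 870 5fC sites with a range of 522 to 1520, against a median of 137 in the other windows. These 3.61% of windows thus held 9.99% of the 5hmC sites and 13.5% of the 5fC sites of the 17 autosomes. By reads the shares were 11.1% for 5hmC and 13.2% for 5fC. Of the 776 windows with the most 5fC sites (3.62% of all), which had 779 or more, 610 were dense windows, 78.6% of that list and 78.7% of the dense windows.

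The window with the most sites lay on chromosome 5 from 116300001 to 116400000 (mm9, as are all coordinates here), with 3486 5hmC and 1395 5fC sites. Next came chromosome 12 from 112500001 to 112600000 with 3407 5hmC and 1352 5fC sites, and chromosome 5 from 114800001 to 114900000 with 3219 and 1208. The other 7 of the 10 windows with the most 5hmC sites had 2988 to 3149 of them, 2 on chromosome 10, 2 on chromosome 17 and 1 each on chromosomes 5, 15 and 16. All 10 had more 5fC sites than the median dense window, between 1179 and 1520. Just inside the threshold, 3 windows with exactly 2000 5hmC sites, on chromosomes 10, 13 and 15, had 747, 798 and 640 5fC sites. Outside it, 3 windows on chromosomes 5, 15 and 17 that each lacked 1 site had 618, 731 and 716 5fC sites, and the 5fC numbers on either side of the threshold overlapped. Genes in these windows are not named, since no annotation of the mm9 build was used here.

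Relative to 5hmC, 5fC was more frequent in the dense windows. They held 39.4 5fC sites per 100 5hmC sites (95% interval 39.3 to 39.6), against 28.03 in the other windows (28.00 to 28.06), 1.41 times as many. The intervals cover counting error only, and neighbouring sites are not independent. Windows with at least 1500 but under 2000 5hmC sites stood between, at 35.6. Of the 775 dense windows 768 lay above the 29.2 of all 17 autosomes pooled, whereas 30.2% of all windows with at least 100 5hmC sites did. By reads, 705 dense windows lay above the pooled value of 38.0 5fC reads per 100 5hmC reads, against 27.7% of all windows with at least 100 5hmC sites. The median dense window had 44.8 5fC reads per 100 5hmC reads, and the median other window had 30.5. With reads pooled over windows, the excess of 5fC was smaller than with sites pooled. Dense windows held 13.2% of 5fC and 11.1% of 5hmC reads, but 13.5% of 5fC and 9.99% of 5hmC sites. Pooled 5fC reads per 100 5hmC reads were higher in dense windows on all 17 chromosomes. The gap was narrowest on chromosome 2 (45.4 against 40.7) and widest on chromosome 3 (46.5 against 35.5). On each of the 17 chromosomes the dense windows had the higher number of 5fC sites per 100 5hmC sites, by 9.47 to 13.0, and they were also above the windows of at least 1500 but under 2000 sites on every one, by 1.95 to 4.67.

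The ratio continued to differ by site number within the dense windows. It was 38.8 5fC sites per 100 5hmC sites in the 452 windows with under 2250 5hmC sites, 39.7 in the next 210, 40.6 in the next 78 and 42.0 in the 35 windows with 2750 or more. Across the 775 windows the Spearman correlation of 5hmC sites with this ratio was 0.21, which is weak, and with 5fC sites it was 0.70. The windows share their libraries, and the site number stands in both quantities. Inside a window the same order was seen among its 10 parts of 10 kb. The part with the most 5hmC sites held 43.3 5fC sites per 100 5hmC sites over all dense windows, and the part with the fewest held 33.2.

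**Figure D1:**
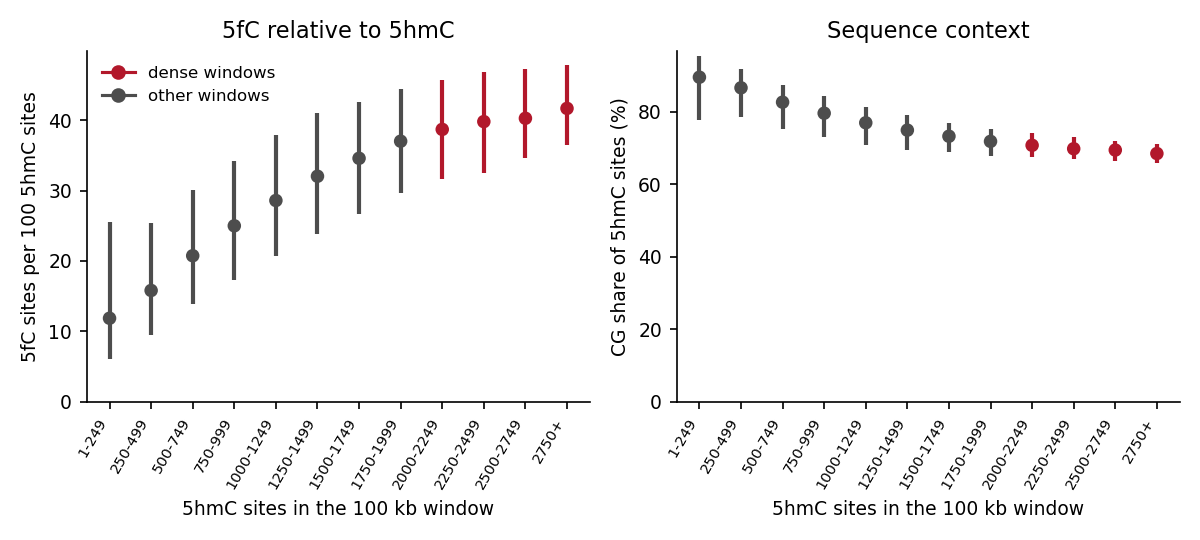
5fC sites per 100 5hmC sites (left) and the CG share of 5hmC sites in percent (right) for windows of 100 kb grouped by their number of 5hmC sites; points are medians over windows and bars run from the 5th to the 95th percentile, with dense windows in red. The median ratio was 38.7 in the first red class and 41.7 in the last, above every grey class, while the CG share was lowest in the last red class at 68.5%.

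Some dense windows departed from this ratio. The highest value was 54.2 5fC sites per 100 5hmC sites on chromosome 18 from 75500001 to 75600000, with 1316 5fC sites. The window on chromosome 2 from 168500001 to 168600000 had 52.4 with 1348 5fC sites. It was followed by chromosome 4 from 140800001 to 140900000, which had 52.0 with 1169 5fC sites. The lowest value was 23.5 on chromosome 2 from 76500001 to 76600000, where 2225 5hmC sites stood beside 522 5fC sites, the fewest of any dense window. The next value was 27.2 on chromosome 18 from 69600001 to 69700000. A window of chromosome 14, from 30800001 to 30900000, had 27.98. All 3 low windows stood alone, with no dense window next to them. So did 40.4% of all dense windows, among them the chromosome 4 window with the ratio of 52.0. The range over all dense windows was therefore 23.5 to 54.2, and 9 in 10 of them lay between the 5th percentile of 32.1 and the 95th of 46.9.

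Reads per 5hmC site also differed, and 5fC was therefore counted among 5hmC sites in the same class of 5hmC reads as well. The 5fC reads were not matched. The mean was 13.7 reads per 5hmC site in dense windows and 12.2 in other windows. Among CG 5hmC sites with 2 reads, 14.1% were also listed for 5fC in dense windows, against 6.81% in other windows. With 9 to 16 reads the shares were 28.1% and 19.4%, and with 17 to 32 reads 45.4% and 38.4%. Above 64 reads they were 92.4% and 91.7%. With the other windows weighted to the read numbers of the dense windows, 33.9% of CG 5hmC sites in dense windows and 26.5% in other windows were listed for 5fC. In the windows of at least 1500 but under 2000 sites, weighted likewise, the share was 31.1%. The shares were therefore higher in dense windows in every read class, and the gap was narrowest in the class above 64 reads.

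Seen from 5fC, the share of sites also listed for 5hmC was close in both sets of windows at CG and differed outside CG. In dense windows 76.6% of 5fC sites were also 5hmC sites on the same base and strand (interval 76.5 to 76.7%), and in other windows 75.9% (75.9 to 75.9%). At CG the share was 82.5% in dense windows and 82.9% in other windows. Outside CG it was 60.5% in dense windows and 53.8% in other windows. The labels do not state how the 5fC signal was separated from 5hmC, and carry-over between the lists was not tested.

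The dense windows had a lower share of CG among their listed sites. CG made up 70.2% of their 5hmC sites (interval 70.2 to 70.3%), against 77.7% in other windows (77.7 to 77.7%) and 72.6% in the windows of at least 1500 but under 2000 sites. Of the 775 dense windows 773 lay under the 76.9% of the 17 autosomes pooled, and 32.3% of all windows with at least 100 5hmC sites did. For 5fC the CG share was 73.1% in dense windows and 75.9% in other windows. Both differences had the same direction on all 17 chromosomes, between 6.38 and 8.24 percentage points for 5hmC and between 1.79 and 3.42 points for 5fC. Since CG sites tend to have more reads, the comparison was repeated within classes of reads: with the other windows weighted to the reads of the dense windows, CG took 70.2% of 5hmC sites in dense windows and 79.2% in other windows. It took 73.0% in the windows of at least 1500 but under 2000 sites, weighted likewise.

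The lower CG share went with a larger share of non-CG sites at a fixed distance from a listed CG. A non-CG site is called partnered here when a listed dyad of the same mark lay 20 to 23 bases downstream on its own strand. The enzyme cuts near modified cytosines, and whether partnered sites carry the mark themselves was not tested. Partnered sites made up 21.4% of 5hmC sites in dense windows and 13.6% in other windows. The windows of at least 1500 but under 2000 sites stood between, at 18.6%. The remaining non-CG sites made up 8.35% in dense windows and 8.69% in other windows. With partnered sites left out, CG took 89.4% of 5hmC sites in dense windows and 89.9% in other windows, so the 7.43 points between them became 0.569. In the windows of at least 1500 but under 2000 sites CG then took 89.2%. In numbers, a dense window held a mean of 484.5 partnered and 189 other non-CG 5hmC sites, against 104 and 66.4 in other windows. The rule counted these sites too, so higher numbers of them follow largely from the choice. The mean over all 5hmC sites was 2263.5 in dense windows and 764.7 in other windows. For 5fC the partnered share was 17.1% in dense windows and 13.1% in other windows, and the remaining non-CG share was 9.76% and 11.02%. The 5fC partnered share was 15.6% in the windows of at least 1500 but under 2000 sites. Without partnered sites, CG took 88.2% of 5fC sites in dense windows and 87.3% in other windows, a difference in the opposite direction.

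Listed dyads at other spacings from non-CG sites were also more frequent in dense windows, at a far lower level. Among non-CG 5hmC sites 71.9% were partnered in dense windows and 61.1% in other windows. The share was 67.8% in the windows of at least 1500 but under 2000 sites. A listed dyad at the same distance upstream was found for 7.26% in dense windows and 5.72% in other windows, and 30 to 33 bases downstream for 6.76% and 4.77%. CA was the most frequent non-CG dinucleotide in both. It made up 45.6% of non-CG 5hmC sites in dense windows and 49.3% in other windows, CT 31.2% and 29.7%, and CC 23.2% and 20.9%.

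**Figure D2:**
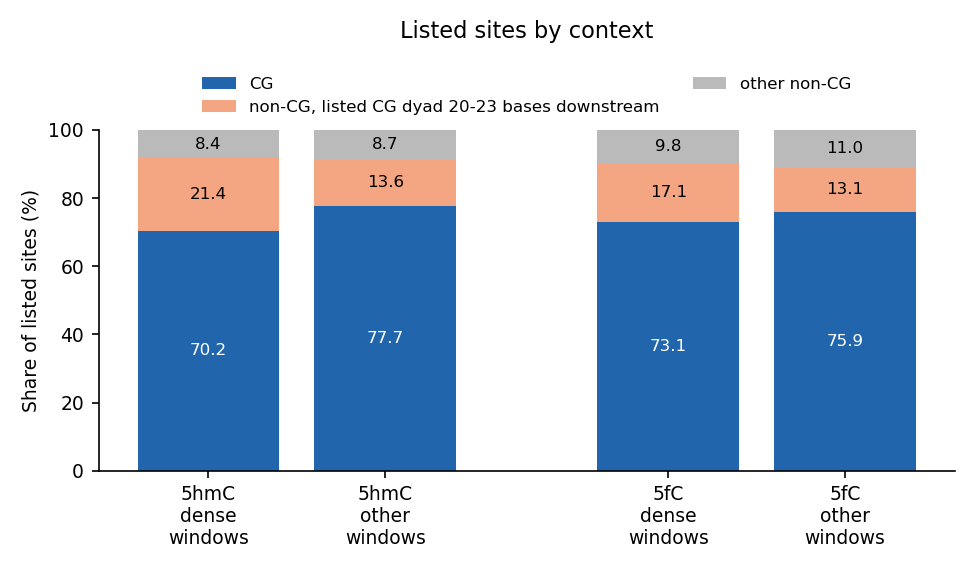
Share of listed sites in percent that were CG (blue), non-CG with a listed CG dyad 20 to 23 bases downstream (orange) and other non-CG (grey), for 5hmC and 5fC in dense windows and in other windows. The orange part is larger in dense windows for both marks (21.4% against 13.6% for 5hmC), while the grey part of 5hmC is 8.35% and 8.69%. The windows of at least 1500 but under 2000 sites, not drawn, had 18.6% partnered sites for 5hmC.

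Among the dense windows the highest CG share of 5hmC sites was 78.7% in the chromosome 2 window with the fewest 5fC sites. The window from 52100001 to 52200000 of chromosome 6 had 77.1%, and that from 51600001 to 51700000 of chromosome 3 had 76.0%. The chromosome 6 window had 2210 5hmC sites but 22808 reads, the fewest of any dense window. It had 45.3 5fC sites per 100 5hmC sites, above the median of 39.3. Its share of 5hmC dyads on both strands was 34.5%, and 67.2% of its 5fC sites were also 5hmC sites, both the lowest of the 775. The lowest CG share was 63.2%, from 140200001 to 140300000 of chromosome 4. On chromosome 17 the window from 30700001 to 30800000 had 63.8%, and the one from 31900001 to 32000000 had 63.9%. The most non-CG sites, 1086, 1054 and 1019, were found in the 2 windows with the most 5hmC sites and on chromosome 4 from 148300001 to 148400000. Over the dense windows the CG share and the 5fC to 5hmC site ratio had a Spearman correlation of -0.68, and both quantities have the 5hmC site number as denominator. Reads per 5hmC site went with both, with a Spearman correlation of 0.69 with the 5fC to 5hmC site ratio and -0.48 with the CG share over the same 775 windows.

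Dyads were listed on both strands more often in dense windows, and within classes of reads this remained for 5fC. Of 848405 dyads with 5hmC in dense windows 45.2% were listed on both strands (interval 45.1 to 45.3%), against 38.5% in other windows (38.4 to 38.5%). The windows of at least 1500 but under 2000 sites had 43.8%. Of the 775 dense windows 770 were above the pooled 39.1%, and 38.3% of all windows with at least 100 5hmC sites were. For 5fC 23.4% of 409816 dyads in dense windows were on both strands (23.3 to 23.6%), against 18.8% in other windows (18.8 to 18.9%) and 21.8% in the windows of at least 1500 but under 2000 sites. Both shares were higher in dense windows on all 17 chromosomes, by 5.72 to 9.06 points for 5hmC and by 3.41 to 6.10 points for 5fC.

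Within classes of reads the 5hmC difference had the opposite direction from 9 reads per dyad upward, while at 5 to 8 reads the shares were 11.5% in dense windows and 11.1% in other windows. With 9 to 16 reads per dyad 34.9% of 5hmC dyads were on both strands in dense windows and 35.6% in other windows, and with 17 to 32 reads 58.8% and 60.3%. With the other windows weighted to the reads of the dense windows, the shares were 45.2% in dense windows and 46.0% in other windows, and 45.4% in the windows of at least 1500 but under 2000 sites. For 5fC the difference remained. At 9 to 16 reads 9.37% of 5fC dyads were on both strands in dense windows and 6.78% in other windows, and at 17 to 32 reads 31.96% and 26.3%. Weighted by 5fC reads in the same way, the shares were 23.4% in dense windows and 20.1% in other windows, and 21.9% in the windows of at least 1500 but under 2000 sites.

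**Figure D3:**
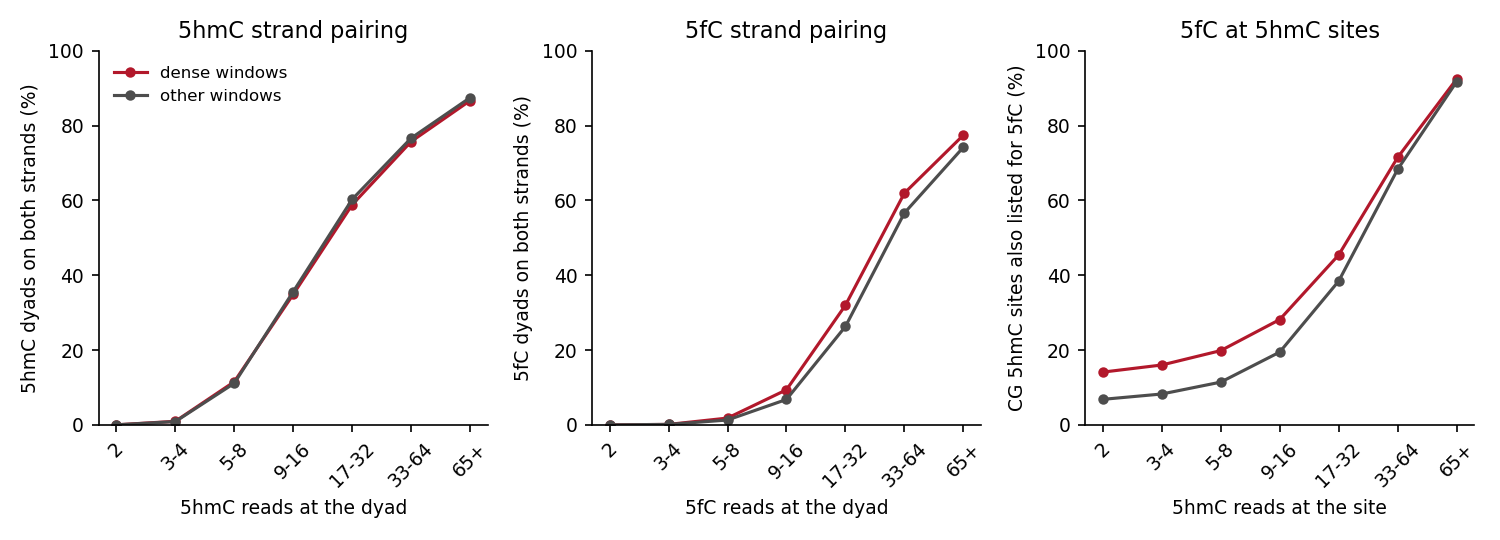
Share in percent of 5hmC dyads (left) and 5fC dyads (middle) listed on both strands, and of CG 5hmC sites also listed for 5fC (right), by number of reads, in dense windows (red) and other windows (grey). The red and grey lines nearly coincide on the left (34.9% and 35.6% at 9 to 16 reads) and are apart in the middle (9.37% and 6.78%) and on the right (28.1% and 19.4%).

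Counting both marks together, 7.58% of all dyads listed for either mark in dense windows had both marks on both strands, against 4.17% in other windows. Dyads with 5hmC on both strands and 5fC on 1 made up 16.9% in dense windows and 11.7% in other windows. Dyads with 5hmC on 1 strand and no 5fC were the most frequent kind, at 33.9% in dense windows and 47.1% in other windows. In the windows of at least 1500 but under 2000 sites these shares were, in the same order, 6.42%, 15.5% and 37.5%. Reads were not matched in these counts, and whether a dyad is listed on both strands depends on its reads. Of all dyads in either list, 3.25% in dense windows and 2.32% in other windows had 5fC without any listed 5hmC. Among dyads with 5fC the order was reversed: 93.1% in dense windows and 92.6% in other windows also had 5hmC on either strand. Where each mark was on 1 strand, it was the same strand in 78.4% of dyads in dense windows and 79.9% in other windows. Neither strand was favoured over a window: 50.1% of 5hmC sites in dense windows lay on the plus strand, between 48.1% and 52.3% in any of them.

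Within the windows the sites were spread out and did not sit in a single cluster. Each dense window was divided into 10 parts of 10 kb. The part with the most 5hmC sites held a median of 14.2% of a dense window's sites, against 16.9% in other windows. In the windows of at least 1500 but under 2000 sites it held 14.7%. Of the 7750 parts 64.6% had 200 or more 5hmC sites, 1.63% had under 100, and 0 were empty. In 656 of the 775 windows every part had at least 100 sites. With 2000 or more sites in 10 parts, a dense window has at least 200 per part on average by the rule. These counts therefore follow largely from the choice, and they were not made for other windows. The sparsest part had a median of 137 sites in dense windows and 25 in other windows. It had 95 in the windows of at least 1500 but under 2000 sites. The windows that departed most were chosen after their values were seen. On chromosome 7 from 51700001 to 51800000 the densest part held 24.8% of 2080 sites. On chromosome 17 from 66600001 to 66700000 one part held 14 sites. In the 3 windows with the most sites, the densest part had 459, 440 and 444 5hmC sites and 239, 175 and 194 5fC sites, and the sparsest part still had 280, 207 and 144 5hmC sites.

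Since the rule keeps windows with many listed 5hmC sites, shorter distances between listed dyads follow largely from the choice. Neighbouring listed 5hmC dyads lay a median of 48 bases apart in dense windows and 92 bases apart in other windows. Distances under 50 bases made up 51.1% in dense windows and 35.1% in other windows, and distances over 1 kb 0.198% and 3.92%. In the windows of at least 1500 but under 2000 sites the median was 60 bases, and 44.8% of distances were under 50 bases. The longest stretch without a listed dyad had a median of 1480 bases in dense windows and 3724 bases in other windows. It was 1701 bases in the windows of at least 1500 but under 2000 sites. The longest such stretch in any dense window was 8710 bases. How many CG dinucleotides a window holds was not counted, since no mm9 genome sequence was used here, so the share of available CG that was listed is not known.

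The dense windows formed groups along the chromosomes. Of the 775 windows 462, or 59.6%, lay directly next to another dense window, while 6.09% of all windows had a dense neighbour. Among the other windows 4.09% did. Counting up to 500 kb away, 83.2% of dense windows and 13.7% of other windows had a dense window, and up to 1 Mb 88.3% and 21.9%. The 775 windows made 470 separate runs. Of these 313 were single windows, 82 were pairs and 75 had 3 or more windows, which together held 298 dense windows.

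The longest run was 14 windows on chromosome 5 from 114000001 to 115400000, with 35476 5hmC and 14391 5fC sites. Its windows had 2046 to 3219 5hmC sites and 816 to 1279 5fC sites, and the windows directly before and after it had 1487 and 1794 5hmC sites. The ratio along it stayed between 37.2 and 44.9 5fC sites per 100 5hmC sites. The second was 8 windows on chromosome 10 from 79200001 to 80000000, with 2040 to 2948 5hmC sites per window and a ratio of 30.6 to 41.2. The third was 7 windows on chromosome 2 from 165900001 to 166600000, with 16783 5hmC sites and a ratio of 39.7 to 46.0. Another 7 windows lay close before it on the same chromosome, from 164600001 to 165300000, with 15629 5hmC sites.

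Density declined gradually away from the dense windows. Windows at 100 kb from the nearest dense window had a median of 1640 5hmC and 574 5fC sites, those at 500 kb 1237 and 367, those at 1 Mb 986 and 252.5, and those at 2 Mb 678.5 and 147. The 5fC to 5hmC ratio was 35.5 5fC sites per 100 5hmC sites at 100 kb, 30.9 at 500 kb and 28.6 at 1 Mb. The CG share of 5hmC sites ran the other way, at 73.0%, 75.5% and 77.0%. The 845 windows directly next to a dense window therefore stood between the dense windows and all other windows pooled in each of these measures. For 5hmC sites the rule itself places them below the dense windows.

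**Figure D4:**
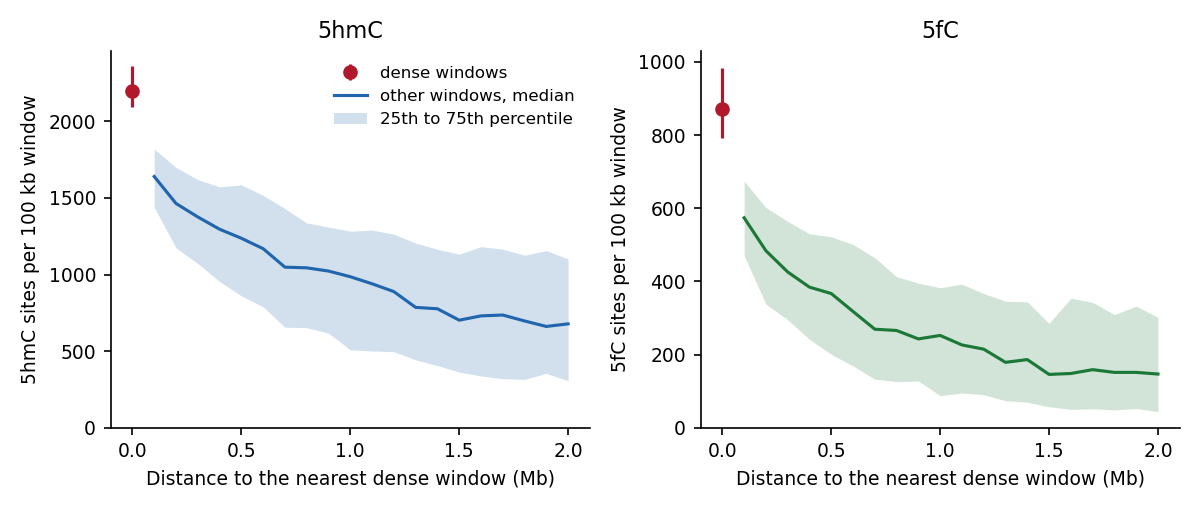
Number of 5hmC sites (left) and 5fC sites (right) per 100 kb window against distance in Mb to the nearest dense window; the red point with its bar is the median and the 25th to 75th percentile of dense windows, and the line and band are the same for other windows. Medians at 1 Mb were 986 5hmC and 252.5 5fC sites, against 2197 and 870 in the dense windows themselves.

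The chromosomes differed in how much of their length was dense. Chromosome 4 had 113 dense windows, 7.47% of its windows, and chromosome 5 had 103, or 6.96%. Chromosomes 19, 17 and 15 followed at 6.86%, 6.85% and 6.07%. At the other end, chromosome 14 had 11 dense windows (0.917%), chromosome 3 had 17 (1.09%) and chromosome 1 had 27 (1.41%). Chromosomes 4 and 5 together held 27.9% of the dense windows. The share of dense windows next to another one was 75.7% on chromosome 2 and 73.5% on chromosome 4, and it was 23.5% on chromosome 3 and 18.2% on chromosome 14. The 5fC to 5hmC ratio of the dense windows differed little by chromosome, between 37.3 on chromosome 13 and 40.5 on chromosome 4, as did their CG share of 5hmC sites, between 69.3% and 71.5%.

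Most dense windows lay in the distal part of their chromosome. The last 30% of the chromosomes, away from the centromere, held 491 dense windows, or 63.4% of them, and 30.2% of all windows. In steps of 10% of the chromosome, 0.844% of windows were dense in the first step, 2.42% between 40% and 50%, and 10.6% in the last. The ends themselves were not dense. Within 1 Mb of the last listed base 0 of 170 windows passed the threshold, the highest having 1955 5hmC sites, and within 1 Mb of the first listed base 0 of 165 did. Between 1 and 5 Mb from the last listed base 60 of 679 windows were dense. The distal preference differed by chromosome: 73.9% of the dense windows of chromosome 16 lay in its last 10%, 60.8% of those of chromosome 2, 4.76% of those of chromosome 17 and none of the 17 of chromosome 3. The 5fC to 5hmC ratio of dense windows varied little among these steps, between 38.6 and 40.0 5fC sites per 100 5hmC sites.

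In blocks of 5 Mb, 281 of 452 blocks held no dense window, and 28 blocks, 6.19% of them, held 395 of the 775. The fullest block was chromosome 2 from 165000001 to 170000000 with 28 dense windows. Chromosome 4 from 135000001 to 140000000 had 26, chromosome 5 from 115000001 to 120000000 had 24, chromosome 4 from 150000001 to 155000000 had 23 and chromosome 17 from 25000001 to 30000000 had 21.

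**Figure D5:**
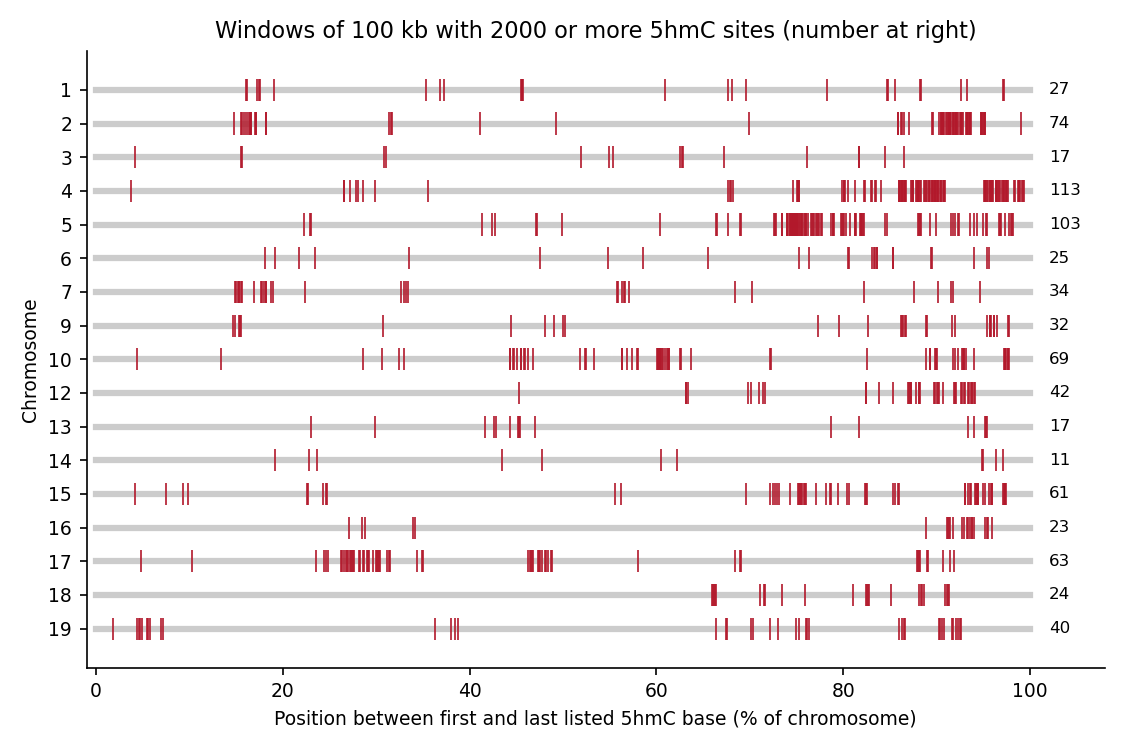
Each red mark is 1 dense window, placed by its distance from the first to the last listed 5hmC base in percent of the chromosome, with 1 row per autosome and the number of dense windows at the right. Marks crowd towards the distal end on chromosomes 2, 4, 12 and 16, where 60.8%, 38.9%, 42.9% and 73.9% lay in the last 10%.

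One run stood apart by its reads. On chromosome 17 from 30600001 to 31100000, 5 neighbouring dense windows had 20.6, 20.6, 20.1, 19.7 and 17.9 reads per 5hmC site, the 5 highest values of all dense windows, the sixth being 16.1 on chromosome 10. The same 5 windows were also the 5 highest by reads per 5fC site, between 19.5 and 24.1. The windows directly before and after them had 14.4 and 14.0 reads per 5hmC site and 17.2 reads per 5fC site each, and 1408 and 1573 5hmC sites. The 5 windows had 2103 to 2909 5hmC sites, and 48.7% to 58.0% of their 5hmC dyads were on both strands. The rule fixes the fall in 5hmC site number at the ends of a run, but it does not use reads per site. The run was chosen for its reads per site after the values were seen. No library of unenriched DNA was used here, and the part of DNA copy number or of depth in these site numbers was not tested.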

How the data were processed

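Per the labels, DNA was cut with PvuRts1I, glucosylated with an azide sugar, ligated, sheared, biotinylated and captured, and the submitters' processing notes name CASAVA, bcl2fastq, cutadapt and Bowtie with build mm9. The authors deposited 2 tables of raw read counts, 1 whole number for every listed cytosine, pooled over libraries. Neither the libraries summed nor the listing rule is stated in the labels. Both lists are marked b1, and the passage 14 libraries are titled bio1, but the 5hmC libraries of both passages name the same list. Whether the passage 12 libraries were summed is therefore not known. For 5hmC there are 264008048 reads at 20807956 cytosines and for 5fC 102305049 reads at 6248342, with at least 2 reads each; sums over listed sites are not the sequencing depth.

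Listed sites were counted in windows of 100 kb by start position. Other windows are those under 2000 5hmC sites on the same 17 autosomes; window shares need at least 100 sites of the mark. Dyads were placed by their plus cytosine. Shares were also computed in 7 classes of the mark's own reads at the listed site or dyad, and weighted to the classes of the dense windows; sequencing depth and the reads of the other mark were not matched. Intervals are Wilson at 95%; that of a ratio comes from 5fC sites as a share of both lists' sites. No test was run. Windows to be named were the 10 with the most sites, extremes (3 each) of the 5fC to 5hmC ratio, of CG share and of non-CG sites, and the 3 longest runs. Members and lists were chosen with earlier results of these data known. Alternatives were read minimums, shifted bins, other thresholds and chromosomes 8 and 11. The counting functions passed 9 of 9 checks on simulated data. Python 3.11.15, numpy 2.4.6, pandas 2.3.3, scipy 1.17.1 and matplotlib 3.10.9 were used.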

Additional observations from a re-analysis of the deposited data

How the results depend on the processing

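The number of dense windows was 78 with at least 5 reads per site, 0 with at least 10, 3275 at a threshold of 1500 sites and 113 at 2500, against 775. Per 100 5hmC sites there were 45.6, 51.8, 36.7 and 41.1 5fC sites in these 4 settings and 41.2 with chromosomes 8 and 11, where for read minimums the windows were kept as chosen. In the same order of 5 settings, the CG share of 5hmC sites was 76.6%, 84.5%, 71.9%, 69.1% and 69.4%, and the share of 5hmC dyads on both strands 37.8%, 26.2%, 44.2%, 46.0% and 46.9%. The share of 5fC sites also listed for 5hmC was 71.0% and 61.6% with the read minimums and 77.5% with chromosomes 8 and 11. Dense windows with a dense neighbour made up 33.3% with at least 5 reads, 82.6% at 1500 sites, 34.5% at 2500 and 66.0% with chromosomes 8 and 11; with at least 10 reads no window was left to give a value. Bins shifted by 50 kb moved none of the 6 results beyond its interval, or the number of windows by over 1.5 times.

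With at least 10 reads per site, dense windows had 51.8 5fC sites per 100 5hmC sites and other windows 41.4. The CG share was 84.5% and 89.6%, and 26.2% and 22.7% of 5hmC dyads were on both strands, so these differences kept their direction. The overlap of 5fC with 5hmC was then 61.6% in both. A read minimum does not match reads between the windows. Weighted to the reads of the dense windows, the 5hmC strand difference had the opposite direction (45.2% in dense windows, 46.0% in other windows). Fewer sites reach a higher read minimum or threshold by construction; other causes of these moves were not tested. No paired analysis was possible because counts per library are absent from both lists, and leaving out each technical replicate was not run for the same reason. Depth limits whether a cytosine is listed at all, so an unlisted cytosine is not shown to lack a mark.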

Other observations

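Chromosomes 8 and 11 were outside the rule and were denser. At the same threshold 171 of 1253 windows of chromosome 8 (13.6%) and 204 of 1189 windows of chromosome 11 (17.2%) were dense, and 0 windows of chromosomes X and Y were. These windows had 43.0 5fC sites per 100 5hmC sites on chromosome 8 and 46.1 on chromosome 11. Of their 5hmC dyads 50.7% and 50.5% were on both strands, and their means were 16.6 and 17.3 reads per 5hmC site. The part of DNA copy number in these values was not tested. A dense neighbour was found for 77.8% and 80.4% of them, with longest runs of 24 and 11 windows.

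Of the windows with the most 5fC sites that were not dense in 5hmC, the one with the fewest 5hmC sites was at the first listed end of chromosome 9, from 3000001 to 3100000, with 820 5fC and 771 5hmC sites and a CG share of 18.2% of 5fC sites. Its few sites held 157808 5fC and 215937 5hmC reads, against medians of 13763 and 30531 per dense window. Next were chromosome 17 from 39900001 to 40000000, with 792 5fC and 1062 5hmC sites, and chromosome 15 from 102800001 to 102900000, with 889 and 1650.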
